A study of Mus musculus with 8 samples.

Results

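Fibroblast surface markers and secreted glycoproteins of the extracellular matrix were followed in bone metastases and primary tumours of the 4T1.2 model. The members were the probe sets whose only gene symbol in the platform annotation was Thy1, Pdgfra, Pdgfrb, Fap, Fn1, Postn, Sparc, Fbn1, Dpt or Loxl1. Of these 10 genes, 9 had such a probe set, 16 probe sets in all of the 34945 with 1 symbol. Fbn1 was not analysed here. 4T1.2 is a mouse mammary carcinoma line grown in syngeneic Balb/c mice, in which it spreads from the mammary gland to bone without injection into the blood. The bone metastasis group held 4 arrays of tumour cells from the spine and the primary tumour group 4 arrays of tumour cells from the mammary gland. By the design text each mouse gave its metastasis and its primary tumour, so the arrays stand for 4 mice, and the replicate numbers of the labels were read as the mice. The labels call the isolated cells tumour epithelial cells, but the labels and design text name neither the separation from stroma nor the animals' age and sex.

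The listed genes describe connective tissue from different sides. Fibroblasts and related cells carry receptors for platelet-derived growth factor, which drive their growth and migration, and they build a matrix of collagen, fibronectin and elastic fibres. Matricellular proteins such as periostin and osteonectin sit on that scaffold and tune how cells attach to it, and lysyl oxidases cross-link it. None of these genes marks fibroblasts alone: Thy1 is also abundant on mouse T cells and neurons, Pdgfrb on pericytes, and Fn1 is made by macrophages and carcinoma cells.

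Array facts that bear on the results come first. The drop in log2 signal between the 3' and the 5' control probe set of beta-actin ran from 4.55 to 6.18 on metastasis arrays and from 1.08 to 1.90 on primary arrays, and that of Gapdh from 4.62 to 6.08 and from 1.55 to 2.59. This loss of 5' signal thus moved with the group. The part of RNA quality or of the amplification in it was not tested. Correlations across probe sets were 0.903 to 0.957 between metastasis arrays and 0.981 to 0.993 between primary arrays. Median log2 signals were 5.23 to 5.42 on metastasis arrays and 5.16 to 5.17 on primary arrays, and a probe set below them is called dim here, since no detection calls were used. Primary array 1 stood apart in connective tissue genes, as noticed after seeing the data. It was the highest primary array for 12 of the 16 member probe sets (75%), against 29.1% of all probe sets with 1 symbol. A list of T cell markers also stood apart on it, with a mean log2 signal of 6.94, against 5.81 to 5.89 on the other primary arrays. In these bulk samples fewer cells of a type and less RNA per cell cannot be told apart.

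Of the 9 genes 4 differed between the groups on at least 1 probe set, and they did so in both directions. Thy1 and Dpt were higher in bone metastasis, and Fn1 and Pdgfra were lower. By limma with Benjamini-Hochberg adjustment over all 34945 probe sets and a threshold of 0.05, 2 of the 16 member probe sets were called higher (12.5%), against a background of 8.72% of all probe sets. The 4 called lower (25.0%) stood against a background of 11.9%, and they came from only 2 genes, so that they are not 4 independent observations. Counted on the brightest probe set of each gene, 2 of the 9 genes were called higher and 2 lower (22.2% each). Over all 18193 genes these shares were 9.93% and 12%. The groups did not overlap for 3 of the 16 probe sets (18.8%), against 28.3% of all probe sets. The median log2 difference of the 16, metastasis minus primary, was -0.08, against 0.09 over all probe sets. With so few genes the account below is one of single genes.

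**Figure D1:**
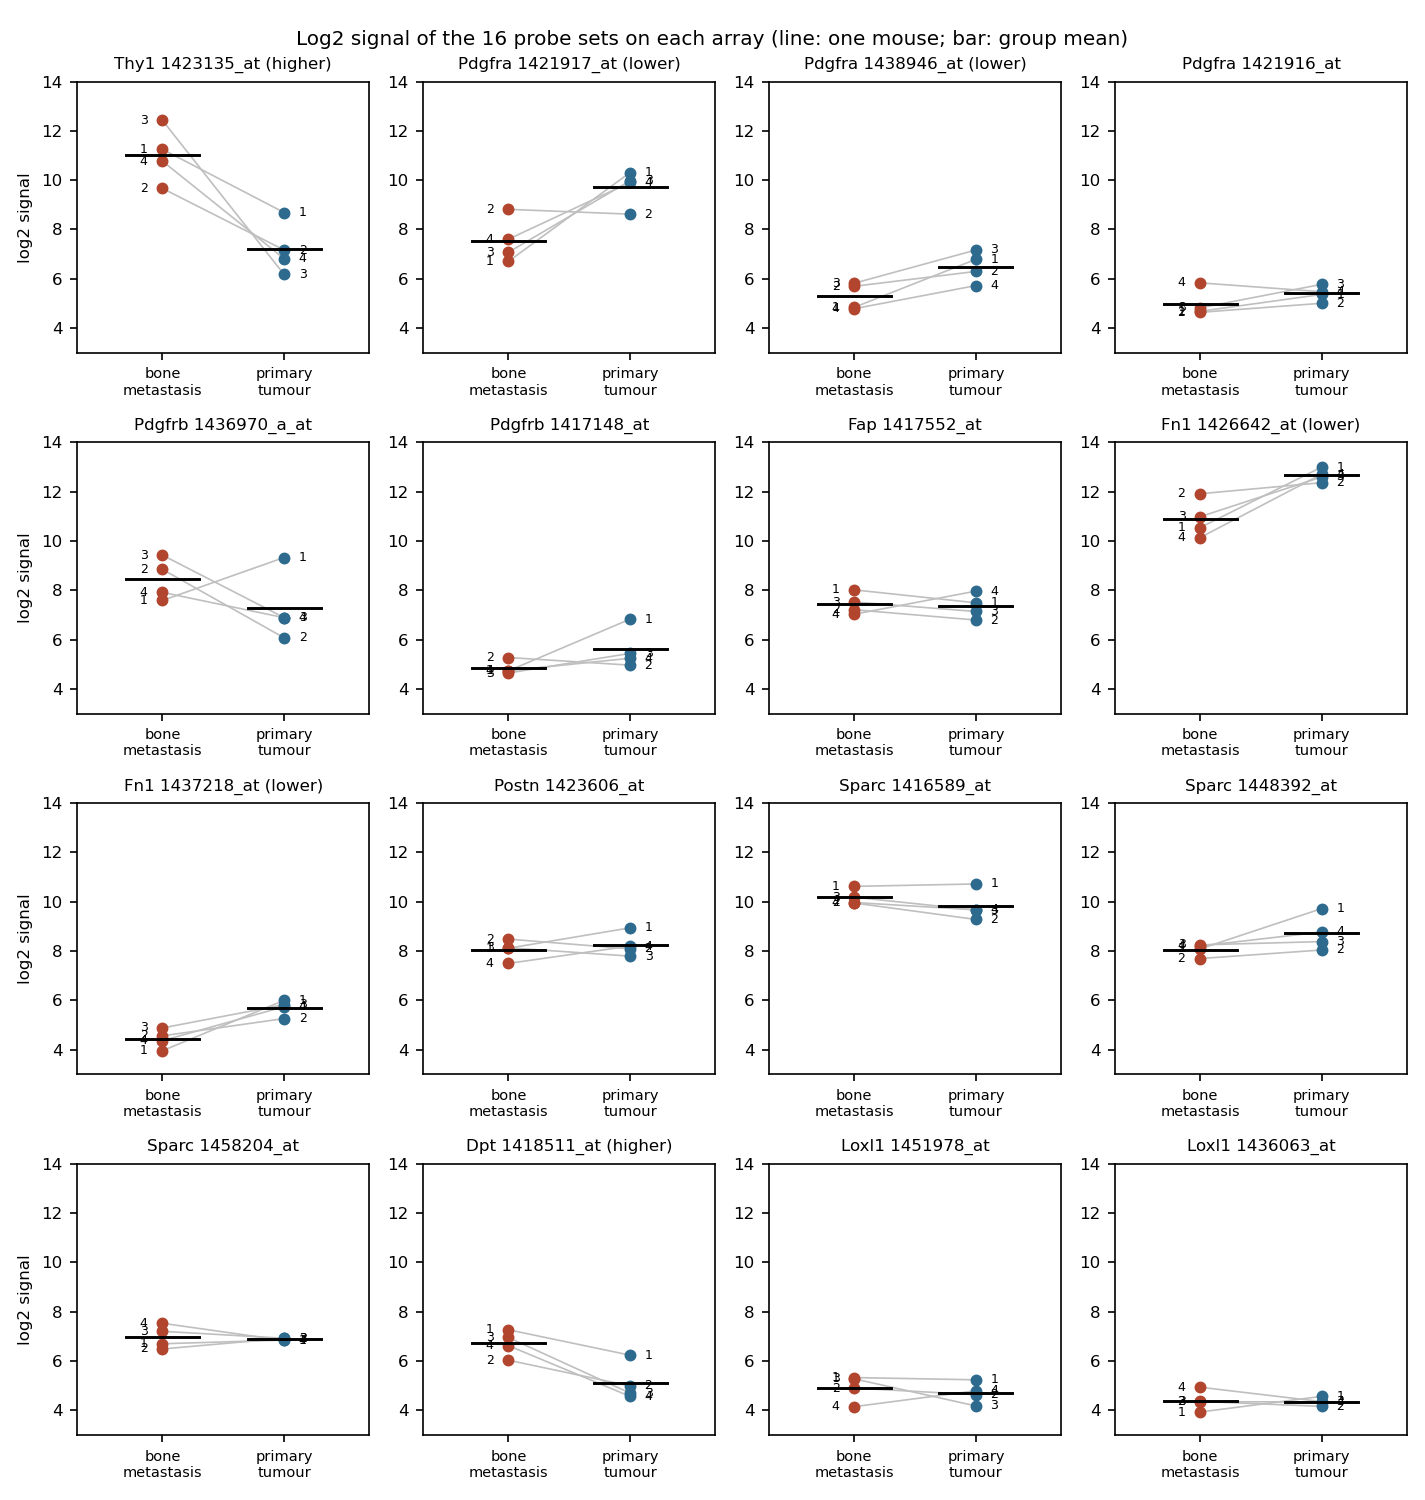
Log2 signal (vertical axis) of each of the 16 member probe sets on the 4 bone metastasis arrays (left in each panel) and the 4 primary tumour arrays (right); numbers give the mouse, grey lines join its 2 tumours and black bars are group means. Thy1 and both Fn1 probe sets part the groups without overlap.

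Thy1 encodes CD90, a glycoprotein held on the cell surface by a lipid anchor. Its probe set, 1423135_at, had log2 signals of 11.25, 9.67, 12.43 and 10.77 on metastasis arrays 1 to 4, against 8.69, 7.17, 6.17 and 6.81 on primary arrays 1 to 4. Every metastasis array lay above every primary array, and mouse 3 held both the highest metastasis value and the lowest primary value. The log2 difference was 3.82 with a standard error (SE) of 0.66, a 14.1-fold rise (limma adjusted p = 0.00619), and it was positive in 4 of 4 mice, from 2.50 to 6.25. Of the 6 called member probe sets it was the only one that kept its call in each of the 19 alternative settings in which it was tested, with limma adjusted p from 0.00112 to 0.0484.

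Nerve markers were among the lists that moved with Thy1, whereas T cell markers were not called. All 10 neuron markers measured, among them the neurofilament genes Nefl, Nefm and Nefh, were called higher in metastases, and their mean log2 signal ran from 7.49 to 9.51 on metastasis arrays and from 4.57 to 4.65 on primary arrays. Metastasis array 3 was highest for Thy1 and for this list, while the lowest was array 2 for Thy1 and array 4 for the list. By limma 0 of 7 T cell markers were called in either direction, and 1 was higher at an unadjusted p under 0.05. No neuron marker and 1 of the T cell markers was dim in both groups. The T cell mean ran from 6.23 to 6.74 on metastasis arrays and from 5.81 to 6.94 on primary arrays. The 6.94 was primary array 1, against 5.81 to 5.89 on the other primary arrays. That array was also the highest primary array for Thy1, while the neuron mean was lowest there (4.57). Other lists parted the groups as well. The tendon and fibrocartilage list was highest on metastasis array 3 (7.95) and lowest on array 2 (6.56), as Thy1 was. Cartilage and osteoblast list means also lay higher on metastasis arrays without overlap. The part of any of these cells or tissues in the Thy1 signal was not tested.

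Pdgfra encodes the alpha receptor for platelet-derived growth factor, a tyrosine kinase of mesenchymal cells. Its brightest probe set, 1421917_at, had log2 signals of 6.70, 8.82, 7.07 and 7.60 on metastasis arrays 1 to 4, against 10.31, 8.62, 9.97 and 9.91 on primary arrays. Metastasis array 2 lay just above primary array 2, so the groups overlapped and 3 of 4 mice showed the fall. The log2 difference was -2.15 (SE 0.51, 4.45-fold lower, limma adjusted p = 0.0197). With the mouse as a block the call was lost (limma adjusted p = 0.0652), as it was without metastasis array 3 (0.0546) and without primary arrays 1, 3 and 4 (0.0539, 0.0608 and 0.0612).

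The other probe sets of Pdgfra gave smaller differences. On 1438946_at the values were 4.84, 5.70, 5.82 and 4.79 on metastasis arrays, against 6.79, 6.30, 7.17 and 5.72 on primary arrays, lower in 4 of 4 mice with some overlap between the groups. Metastasis arrays 1 and 4 were dim on this probe set, so the size of its difference is not exact. Its log2 difference of -1.21 (SE 0.36) passed the threshold narrowly (limma adjusted p = 0.0478), and scaling every array to the 75th percentile or a further quantile normalization ended the call (0.0847 and 0.0568). It was also lost without metastasis arrays 1 and 4 (0.0842 and 0.104) and without primary arrays 1, 2 and 3 (0.114, 0.0878 and 0.124). The third, 1421916_at, for which the annotation gives the same source sequence as for 1421917_at, was dim on 3 of 4 metastasis arrays. Its difference was -0.41, with a 95% interval from -1.08 to 0.25 (limma adjusted p = 0.343).

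Pdgfrb, the beta receptor that pericytes carry, was not called, and its 2 probe sets pointed in opposite directions. On the brighter, 1436970_a_at, metastasis arrays had 7.58, 8.84, 9.42 and 7.91, against 9.33, 6.07, 6.89 and 6.89 on primary arrays. Primary array 1 lay within the metastasis range and the other primary arrays lay below it. The log2 difference was 1.15, with a 95% interval from -0.44 to 2.74 (limma adjusted p = 0.273), and without primary array 1 it was 1.83 and called (limma adjusted p = 0.0390), as it was without mouse 1 (2.11, limma adjusted p = 0.0226). On 1417148_at, dim on 3 of 4 metastasis arrays, the difference was -0.77, with an interval from -1.65 to 0.10 (limma adjusted p = 0.187). Of 11 pericyte and smooth muscle markers 3 were called higher, Rgs5, Notch3 and Cspg4, and only Notch3 with the mouse as a block (limma adjusted p = 0.0784 for Rgs5 and 0.101 for Cspg4). The list mean ran from 6.36 to 7.09 on metastasis arrays and from 5.86 to 6.58 on primary arrays, again with primary array 1 the highest. The part of these cells in the Pdgfrb signal was not tested.

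Fap encodes fibroblast activation protein, a membrane serine protease of activated fibroblasts. Its log2 signals were 8.01, 7.21, 7.52 and 7.03 on metastasis arrays, against 7.49, 6.79, 7.14 and 7.96 on primary arrays. The ranges nearly coincided, and 3 mice were higher and 1 lower in metastasis. The difference of 0.10 had a 95% interval from -0.58 to 0.77 (limma adjusted p = 0.837). That interval does not cover the choice of scaling. The difference was 0.41 after scaling to the 75th percentile and 0.39 after a further quantile normalization (limma adjusted p = 0.238 and 0.324). It lay below 0 in 5 of 19 settings and was called in none.

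Fn1 encodes fibronectin, the glycoprotein that cells assemble into fibrils and grip through integrins. Its brighter probe set, 1426642_at, had 10.54, 11.91, 10.98 and 10.14 on metastasis arrays, against 13.00, 12.36, 12.59 and 12.71 on primary arrays. All metastasis arrays lay below all primary arrays, with metastasis array 2 the closest. The log2 difference was -1.77 (SE 0.35, 3.42-fold lower, limma adjusted p = 0.0106), negative in 4 of 4 mice, from -2.57 to -0.45. The call was lost without mice 1, 3 and 4 (limma adjusted p = 0.0559, 0.0737 and 0.0586).

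The dimmer Fn1 probe set, 1437218_at, moved the same way. It had 3.95, 4.56, 4.88 and 4.36 on metastasis arrays, against 6.0, 5.26, 5.82 and 5.74 on primary arrays, again without overlap. The difference was -1.27 (SE 0.23, limma adjusted p = 0.00791), and because the 4 metastasis values were dim its size is not exact; the call was lost without mouse 4 (limma adjusted p = 0.0582). Macrophage markers moved with Fn1: 7 of 8 were called lower and 0 higher (8 lower and 0 higher at an unadjusted p under 0.05). Their mean was 7.80, 9.60, 8.43 and 8.33 on metastasis arrays and 10.7 to 11.7 on primary arrays. Metastasis array 2 was the highest metastasis array for these markers and for the brighter Fn1 and Pdgfra probe sets. The lowest was array 1 for the markers and for that Pdgfra probe set, but array 4 for the brighter Fn1 probe set. Of 11 epithelial markers 2 were called lower (Krt19 and Cldn4) and 0 higher, with 6 lower and 0 higher at an unadjusted p under 0.05. The list mean was 6.24 to 7.94 on metastasis arrays against 7.93 to 8.64 on primary arrays. Krt8, not called, had 7.34, 12.39, 9.80 and 12.97 on metastasis arrays 1 to 4, against 13.07 to 13.32 on primary arrays. Krt18, also not called, had 6.05, 10.95, 8.49 and 11.86, against 11.37 to 11.95. Metastasis arrays 1 and 3 were thus far lower for both keratins than arrays 2 and 4. Epcam and Cdh1 differed by only -0.22 and 0.43, without a call. The part of macrophages, of epithelial cells or of the 5' loss of signal in the Fn1 difference was not tested.

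Dpt encodes dermatopontin, a small matrix protein that binds decorin and helps collagen fibrils form. Its log2 signals were 7.27, 6.03, 6.96 and 6.63 on metastasis arrays, against 6.24, 4.99, 4.70 and 4.57 on primary arrays. Every mouse had the higher value in bone, by 1.03 to 2.26, but primary array 1 exceeded metastasis array 2, so the groups overlapped. The difference was 1.60 (SE 0.40, 3.02-fold higher, limma adjusted p = 0.0257), with 3 of 4 primary values dim, which makes its size inexact. The call was lost without metastasis array 3 (limma adjusted p = 0.0658) and without primary arrays 2, 3 and 4 (0.0688, 0.0773 and 0.0790). Tendon and fibrocartilage markers moved with it: 4 of 7 were called higher (Fmod, Prg4, Chad and Thbs4) and 0 lower, also 0 lower at an unadjusted p under 0.05. The list mean ran from 6.56 to 7.95 on metastasis arrays and from 4.46 to 4.82 on primary arrays (Thbs4 is also counted among the matricellular genes), while the defining tendon genes Tnmd, Scx and Mkx were dim in both groups. Metastasis array 2 was the lowest metastasis array for both this list and Dpt, while the highest was array 3 for the list and array 1 for Dpt. The part of these tissues in the Dpt difference was not tested.

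Dpt and Pdgfra, which were called in opposite directions, are shown with the sequence around the start that the promoter table gives, from RefSeq on build GRCm38.p6, a C57BL/6J genome. Of the 9 members 4 had an entry there, and Dpt and Pdgfra were the called ones among these 4. Each window runs from 250 bases before to 30 bases after the start, 5' to 3' on the plus strand, at chr1:164796413-164796692 for Dpt and chr5:75152001-75152280 for Pdgfra. The Pdgfra start used in that table lies inside the annotated gene, downstream of its outermost start. Capitals mark TATAAA and CANNTG, searched on both strands; the second is the E-box read by helix-loop-helix factors and is its own reverse complement, and no match of one overlapped the other.
Dpt: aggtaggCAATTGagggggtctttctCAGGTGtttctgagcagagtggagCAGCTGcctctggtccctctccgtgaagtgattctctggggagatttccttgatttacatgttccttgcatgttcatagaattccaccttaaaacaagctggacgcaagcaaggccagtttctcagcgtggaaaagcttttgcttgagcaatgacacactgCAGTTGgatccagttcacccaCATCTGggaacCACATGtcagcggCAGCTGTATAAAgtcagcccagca
Pdgfra: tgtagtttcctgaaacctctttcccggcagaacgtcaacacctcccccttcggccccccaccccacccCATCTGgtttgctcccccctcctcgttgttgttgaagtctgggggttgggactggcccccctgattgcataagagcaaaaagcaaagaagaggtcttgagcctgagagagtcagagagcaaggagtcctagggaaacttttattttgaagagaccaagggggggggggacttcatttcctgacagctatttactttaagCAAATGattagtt
The Dpt window held 7 matches of CANNTG and 1 of TATAAA, with its first letter 13 bases into the transcript as annotated. The Pdgfra window held 2 matches of CANNTG and none of TATAAA. Over all 32851 promoter windows of this length 13.1% held TATAAA and 70.1% held CANNTG, with a median of 1 match, and 0.122% held 7 or more. These are letters in a reference sequence, and binding was not measured.

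**Figure D2:**
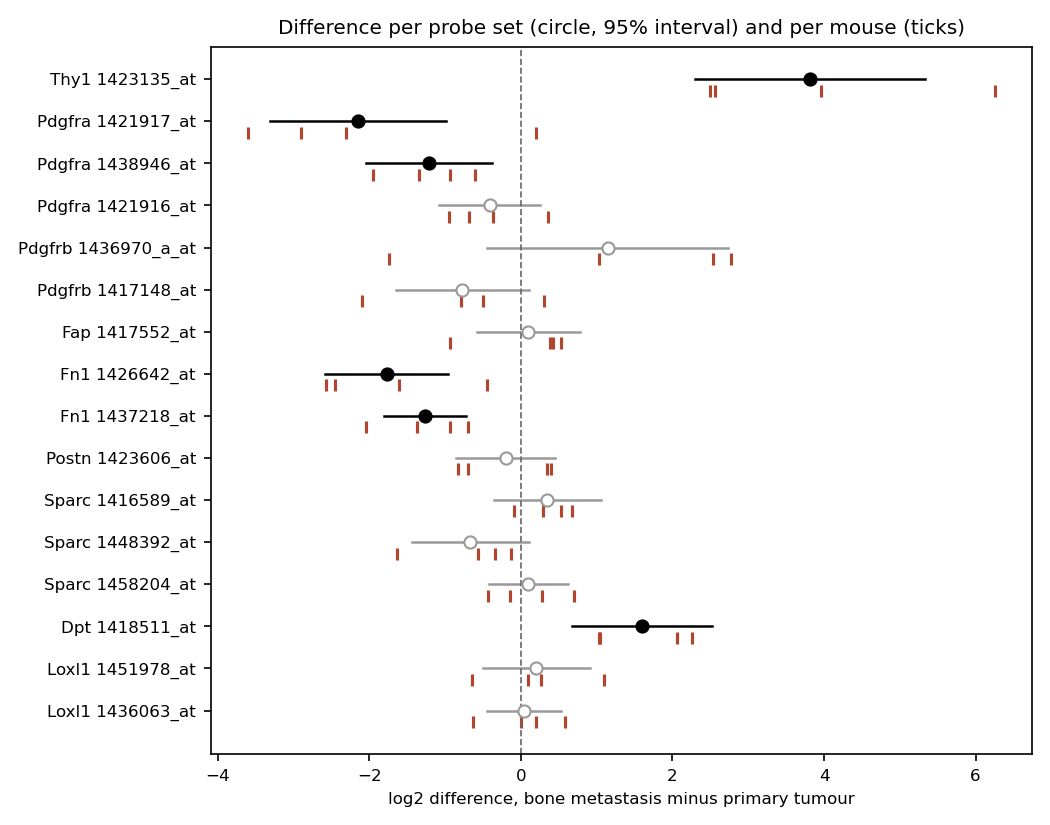
Log2 difference, bone metastasis minus primary tumour (horizontal axis), for each member probe set: circles with 95% limma intervals, filled black where the adjusted p was under 0.05, and red ticks for the 4 mice. Thy1 at 3.82 and Dpt at 1.60 lie right of 0, the called Fn1 and Pdgfra probe sets lie between -2.15 and -1.21, and the other 10 intervals cross 0.

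The remaining matrix genes, Postn, Sparc and Loxl1, gave no call on any of their 6 probe sets. Postn encodes periostin, a matricellular protein of periosteum and wound stroma. It had 8.11, 8.48, 8.13 and 7.50 on metastasis arrays, against 8.94, 8.09, 7.79 and 8.20 on primary arrays, with 2 mice up and 2 down. The difference was -0.20 (95% interval -0.85 to 0.46, limma adjusted p = 0.644).

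Sparc encodes osteonectin, a collagen-binding protein abundant in bone. The brightest of its probe sets, 1416589_at, had 10.62, 9.94, 10.18 and 9.96 on metastasis arrays, against 10.72, 9.28, 9.66 and 9.67 on primary arrays. Apart from primary array 1 the primary values lay below the metastasis values, and the difference of 0.35 had an interval from -0.36 to 1.05 (limma adjusted p = 0.450). On 1448392_at, assigned to the same transcript entry, metastasis arrays had 8.09, 7.69, 8.25 and 8.20, against 9.72, 8.04, 8.38 and 8.77 on primary arrays. This probe set was lower in 4 of 4 mice, by -1.63 in mouse 1 and -0.57 to -0.13 in the others, but the groups overlapped and the difference of -0.67 missed the threshold (interval -1.44 to 0.10, limma adjusted p = 0.195). The third, 1458204_at, differed by 0.10 (interval -0.42 to 0.61). Sparc was thus one of 2 members with probe sets on both sides of 0 among the 5 that had more than 1, as Pdgfrb was, a common state on this array that 50.2% of the 9010 such genes showed.

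Loxl1 encodes a lysyl oxidase that cross-links elastin. Its probe set 1451978_at had 5.33, 4.90, 5.28 and 4.15 on metastasis arrays, against 5.24, 4.64, 4.18 and 4.79 on primary arrays, and 1 array of each group lay above its array median. The difference was 0.20 (95% interval -0.51 to 0.91). On 1436063_at all 8 arrays were dim, at 3.93 to 4.94 in metastases and 4.16 to 4.57 in primary tumours (difference 0.04, interval -0.45 to 0.53). Little can be read from Loxl1, whose signal stayed near or below the array median.

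Related genes of matrix and stroma were counted on the brightest probe set of each gene. Of 102 genes in 5 lists, 7 were called higher (6.86%) and 23 lower (22.5%), against 9.93% and 12% of all 18193 genes. Their median log2 difference was -0.29, against 0.09 over all genes. The split of calls depends on the scaling: of all called probe sets 57.8% were lower, but 36.1% after scaling to the 75th percentile, which moved the median difference of all probe sets from 0.09 to 0.40, and of the called genes in these lists 14 were then higher and 19 lower.

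Enzymes that modify and process collagen were called in 1 direction. Of 18 measured, 9 were lower and 0 higher (50% and 0%, and 10 lower and 0 higher at an unadjusted p under 0.05), with a median of -0.95. P4ha1, a prolyl hydroxylase subunit, fell to a mean log2 signal of 6.53 ± 0.65 in metastases, against 9.91 ± 0.11 in primary tumours (SD, n = 4 each), a difference of -3.38 (SE 0.30, limma adjusted p = 0.000527), though its other probe set gave only -0.71 (limma adjusted p = 0.0632). Crtap, of the prolyl 3-hydroxylation complex, and Plod1, a lysyl hydroxylase, changed by -2.39 (SE 0.40) and -2.01 (SE 0.28), and the other probe set of Plod1 lay at 0.01 (limma adjusted p = 0.978). Lox, the founding lysyl oxidase, had -0.88 and Loxl4 0.16, neither called, and Loxl3 was called at -1.0 (limma adjusted p = 0.0468, or 0.0538 with the mouse as a block), a call that was lost in 14 of 19 settings, with limma adjusted p up to 0.311.

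Elastic fibre and fibrillin-related genes were mostly not called, 1 higher (7.14%) and 2 lower (14.3%) of 14, shares near those over all genes, with a median of -0.12. Ltbp1 and Ltbp4, which tether latent TGF-beta to the matrix, changed by -3.19 (SE 0.34) and -1.61 (SE 0.34). The Ltbp1 probe set was dim on all 4 metastasis arrays, so its size is not exact, and other probe sets of this gene lay at -0.16 and 0.84 and were not called (limma adjusted p = 0.483 and 0.234). Fbln5, which helps elastic fibres assemble, rose by 1.71 (SE 0.46, limma adjusted p = 0.0314, or 0.0691 with the mouse as a block), and the call was lost in 10 of 19 settings, among them without metastasis arrays 2 and 3 (0.0579 and 0.0742) and without primary arrays 2, 3 and 4 (0.0854, 0.0791 and 0.0700).

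Of 23 matricellular genes 2 were called higher (8.70%) and 4 lower (17.4%), shares near those over all genes, with a median of 0.28. Spock2, a testican proteoglycan, and Thbs4, a thrombospondin of tendon and other connective tissue, rose by 3.39 (SE 0.54) and 2.66 (SE 0.21), and the other probe set of Spock2 gave 0.60 (limma adjusted p = 0.147). Thbs1 changed by -2.58 (SE 0.70), with another probe set at -0.08. Its call (limma adjusted p = 0.0333) was lost in 9 of 19 settings, among them a further quantile normalization (0.0580), without metastasis array 4 (0.0774) and without primary arrays 2, 3 and 4 (0.0892, 0.0854 and 0.0835). Ccn4 and Ecm1, both secreted matrix proteins, changed by -2.33 (SE 0.48) and -1.77 (SE 0.34).

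Of 34 further fibroblast and mesenchymal genes 3 were called higher (8.82%) and 4 lower (11.8%), close to the shares over all genes, with a median of -0.16. Fstl1, a secreted glycoprotein of mesenchymal cells, had 11.12, 11.24, 11.82 and 10.28 on metastasis arrays, against 8.42, 6.64, 5.53 and 6.77 on primary arrays. It rose 19.4-fold (log2 difference 4.28, SE 0.57, limma adjusted p = 0.00226), and its other probe set rose by 2.95. Dcn, which encodes decorin, a partner of dermatopontin, had 11.50, 11.15, 11.22 and 10.94 on metastasis arrays, against 9.54, 8.86, 7.73 and 8.64 on primary arrays. Its groups stood well apart on this probe set (difference 2.51, SE 0.34, limma adjusted p = 0.00239), while its other probe set gave 0.36 (limma adjusted p = 0.240). Primary array 1 was again the highest primary array for Fstl1 and Dcn. Pi16, a marker of adventitial fibroblasts, passed the threshold narrowly at 0.91 (SE 0.27, limma adjusted p = 0.0479). Its call was lost in 11 of 19 settings, among them an intensity trend (0.0613), without metastasis arrays 2 and 4 (0.0832 and 0.101) and without each of primary arrays 1 to 4 (0.0619 to 0.128). Nt5e, which encodes CD73, and Col14a1 changed by -2.11 (SE 0.38) and -1.96 (SE 0.32), and the transcription factor Twist1 by -1.92 (SE 0.58, limma adjusted p = 0.0491, or 0.0818 with the mouse as a block). The Twist1 call was lost in 14 of 19 settings, among them without metastasis arrays 1, 3 and 4 (limma adjusted p = 0.0685, 0.120 and 0.0562) and without each primary array (0.0731 to 0.118). Other probe sets of Nt5e and Col14a1 lay on the other side of 0, at 0.34 and 0.18, and were not called.

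Among ligands of the PDGF receptors, Pdgfb and Pdgfc changed by -3.06 (SE 0.27) and -1.54 (SE 0.24), while Pdgfa and Pdgfd had -0.72 and 0.11 and were not called. Pdgfb had 5.70, 6.59, 6.06 and 6.53 on metastasis arrays, against 9.79, 9.13, 8.78 and 9.43 on primary arrays, so its groups lay far apart, although its other probe set differed by only -0.47 (limma adjusted p = 0.172). Among receptors of fibronectin and periostin, the integrin chain Itgb1 and the syndecan Sdc4 changed by -1.96 (SE 0.37) and -1.34 (SE 0.39). Other probe sets of Itgb1 ranged from -3.56 to 0.25, and the call of Sdc4 (limma adjusted p = 0.0422) was lost in 12 of 19 settings, with limma adjusted p up to 0.148. The integrin chain Itgb3, also abundant on platelets and osteoclasts, rose by 1.44 (SE 0.39, limma adjusted p = 0.0321), a call lost in 8 of 19 settings, among them without metastasis array 3 (0.0620) and without primary arrays 2, 3 and 4 (0.0819, 0.0839 and 0.0802). In all 4 of these 14 genes were lower (28.6%) and 1 higher (7.14%), with a median of -0.85.

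**Figure D3:**
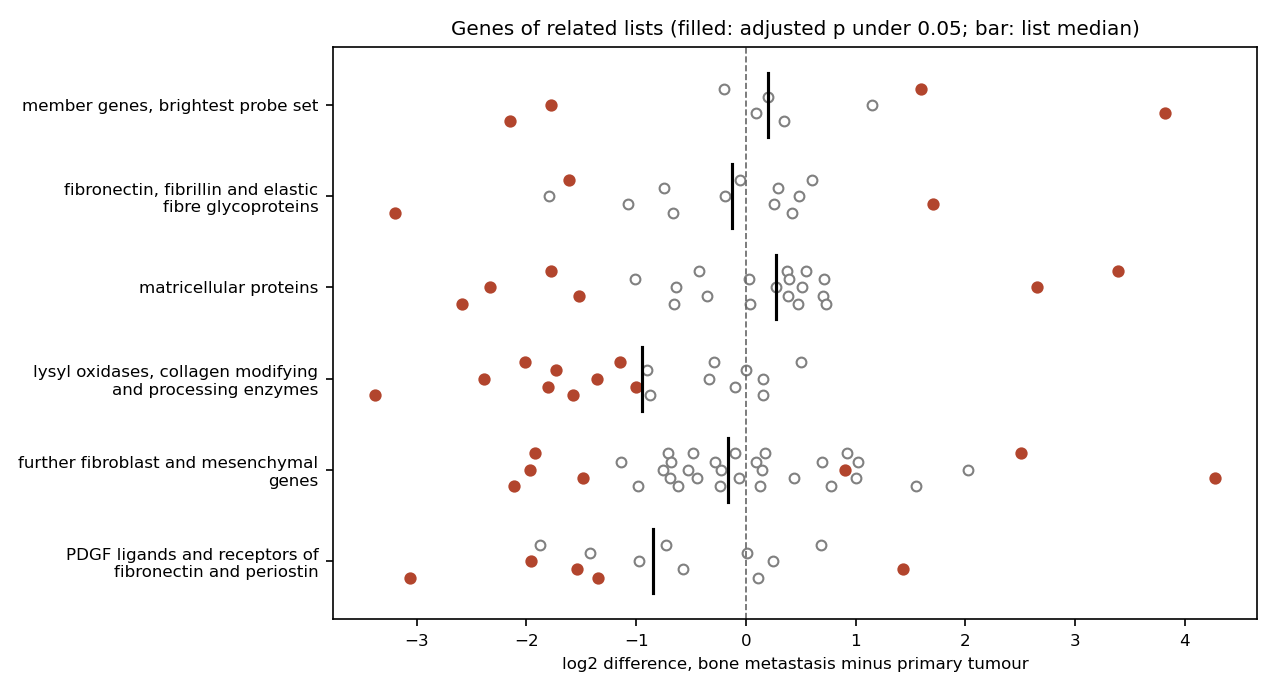
Log2 difference, bone metastasis minus primary tumour (horizontal axis), of the genes of the 5 related lists and of the 9 members, each on its brightest probe set; filled points have a limma adjusted p under 0.05 and bars mark list medians. The collagen-modifying list has 9 filled points, all left of 0, and the others are mixed.

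Marker lists place these changes among the cells the samples could hold. Osteoblast markers were called higher in 1 of 6 cases (Ibsp) and cartilage markers in 4 of 8 (Col11a2 not with the mouse as a block, limma adjusted p = 0.0923). Sox9, also on the cartilage list, went the other way without a call. Its difference was -1.18, lower in 4 of 4 mice (limma unadjusted p = 0.0413, adjusted p = 0.126). Osteoblast and cartilage list means were 6.04 to 6.83 and 6.28 to 6.90 on metastasis arrays, against 5.27 to 5.65 and 5.57 to 5.66 on primary arrays, without overlap. Of 8 endothelial markers Cldn5 alone was higher, and the list means of 5.53 to 6.14 and 5.40 to 6.0 overlapped. Nerve sheath list means overlapped as well (8.14 to 9.0 against 7.95 to 8.47), with S100b higher (3.55) and Egr2 lower (-2.02) of 6. Sox10 rose by 1.15 in 4 of 4 mice without overlap of the groups, but was not called (limma adjusted p = 0.0544). Pmp22, Mbp and Erbb3 had -1.04, 0.08 and 0.13 and were not called. Egr2 and Pmp22 had means of 11.1 and 11.4 in primary tumours of the mammary gland. The mean of the nerve sheath list is therefore not read as a measure of nerve sheath. Marrow stromal markers had 1 higher (Ebf3) and 3 lower (Vcam1, Kitl and Foxc1, the last not with the mouse as a block, limma adjusted p = 0.0848) of 7, and list means of 6.06 to 7.23 against 7.22 to 7.40. In primary tumours of the mammary gland Vcam1, Kitl and Foxc1 had means of 12.7, 10.1 and 7.99. The list is therefore not read as a measure of marrow stroma. Megakaryocyte and platelet markers, which matter here because platelets store fibronectin and osteonectin, had 0 of 6 called by limma (0 higher and 1 lower at an unadjusted p under 0.05), with overlapping means of 6.68 to 7.52 and 7.08 to 7.68. With the mouse as a block Pf4 was called lower, at -1.25 (limma adjusted p = 0.0341).

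**Figure D4:**
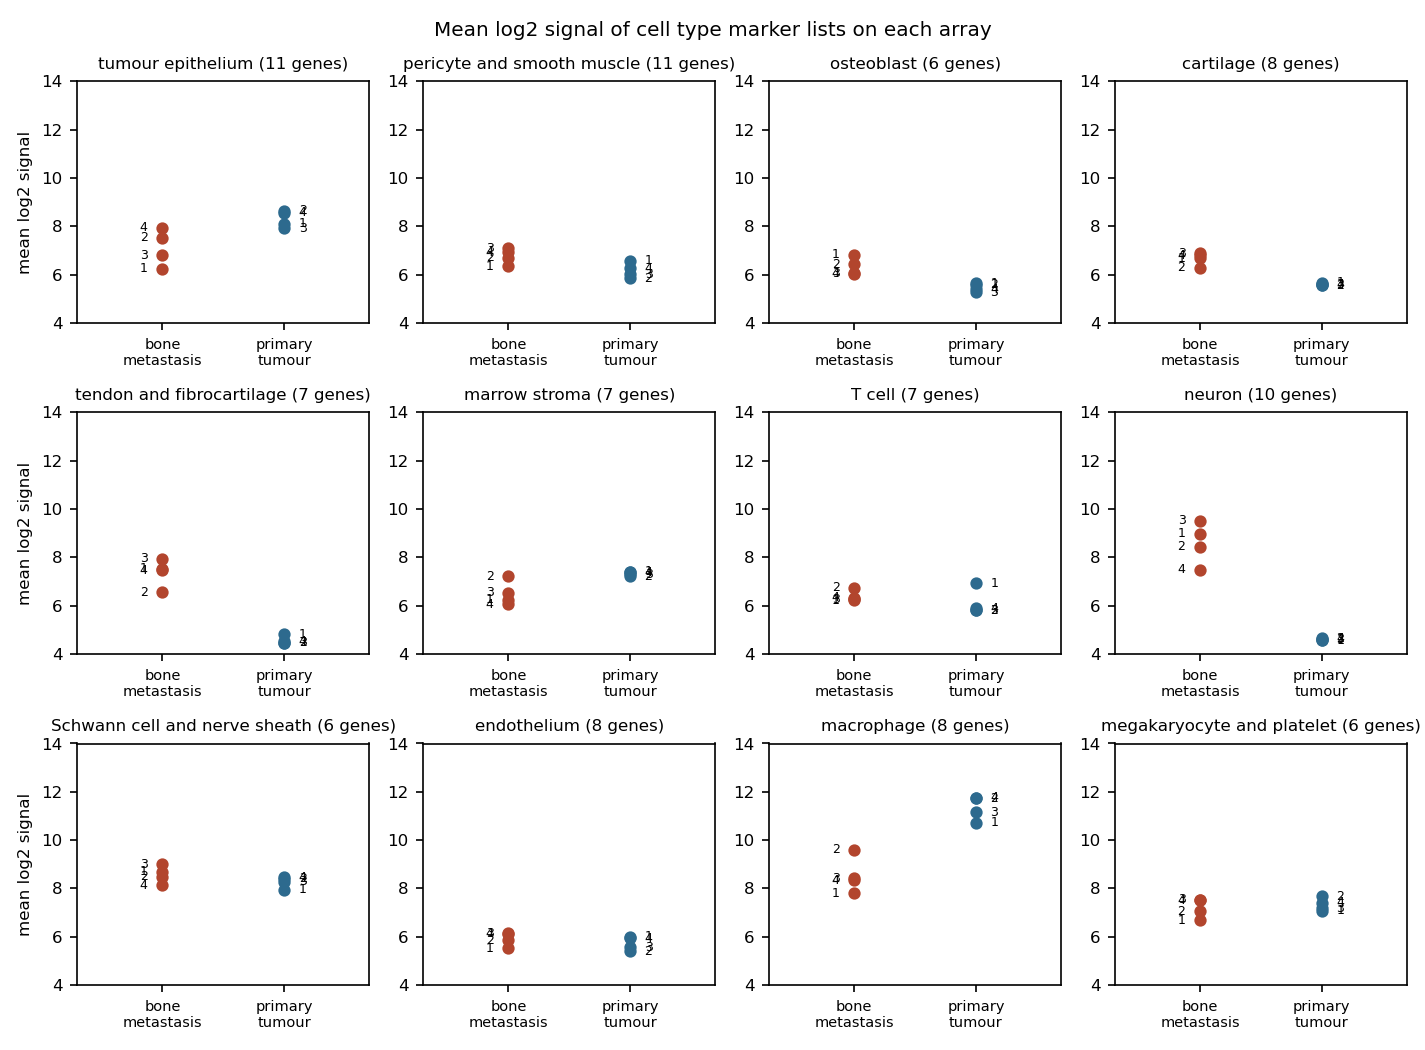
Mean log2 signal (vertical axis) of 12 cell type marker lists on each array, bone metastasis left and primary tumour right in every panel, numbered by mouse. Neuron, tendon, cartilage and osteoblast lists lie higher on metastasis arrays, the macrophage list lower, and the T cell, endothelial and platelet lists overlap.

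The arrays differed among themselves in a way the members shared. Further fibroblast and mesenchymal genes had a mean log2 signal of 8.37 on primary array 1 and 7.50 to 7.64 on the other primary arrays, whereas the metastasis arrays lay close together at 7.74 to 7.84. Within the primary group, Thy1, Dpt, Postn, Fn1 and the brighter probe sets of Pdgfra, Pdgfrb, Sparc and Loxl1 were all highest on array 1. Without primary array 1 the differences of Thy1, Dpt and Fn1 1426642_at were 4.31, 1.97 and -1.66, all called, and with Pdgfrb 3 member probe sets were called higher and 2 lower. Metastasis arrays 1 and 3 had the lowest epithelial marker means, 6.24 and 6.80, and without both of them only 2 members were called, Thy1 at 3.01 (limma adjusted p = 0.0384) and Fn1 1437218_at. Within the metastasis group no array was highest throughout: on the brightest probe set of each gene, array 3 led for Thy1 and Pdgfrb, array 2 for Fn1, Pdgfra and Postn, and array 1 for Sparc, Dpt, Fap and Loxl1.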

How the data were processed

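Total RNA was labelled with biotin in a scheme of 2 amplification rounds and hybridised to 8 one-colour arrays, per the labels' protocols. The deposited values are log2 signals; per the submitters' processing notes they come from RMA, without a stated version. As the values are fluorescence and no counts, precision depends on the number of arrays. Genes were named from the platform annotation, and of 45101 probe sets 34945 had 1 symbol, 932 several, 9160 none listed there and 64 were controls.

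Differences are metastasis minus primary log2 means from limma 3.58.1 (lmFit and eBayes, R 4.3.3) over all 34945 probe sets, two-sided, with Benjamini-Hochberg adjustment and a threshold of 0.05, without a block or a filter. The 95% intervals are limma's. The fit was tested on simulated data with the same spread in both groups. That test cannot speak for the real arrays, where the metastasis group varied more than the primary group. The pairing comes from the design text; deviations of same-numbered arrays from their group means correlated at 0.16, 0.00, 0.03 and -0.10. The members and lists were chosen with earlier results of these data known, and no list was tested as a whole. Genes named from the 5 related lists are up to 3 called genes per direction with the largest change in 1 direction in 4 of 4 mice; Loxl3, Lox, Loxl4, Pdgfa, Pdgfd and Sdc4 were added after their values were seen. Marker lists were read from 12 lists as mean log2 signals. There were 19 alternative settings: the mouse as a block, 1 probe set per gene, 2 scalings, a filter on dim probe sets, an intensity trend, each array and each mouse left out, and 1 chosen after seeing the data, without metastasis arrays 1 and 3. Tables and figures used Python 3.11.15, pandas 2.3.3, numpy 2.4.6 and matplotlib 3.10.9.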

Additional observations from a re-analysis of the deposited data

Results flagged for a closer look

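Among the 32 sets of 4 arrays checked (16 probe sets in 2 groups), 2 held an array far from the others, where chance gives about 1 in 20. On the Pdgfra probe set 1421916_at, metastasis array 4 had a log2 signal of 5.83, above 4.64 to 4.82 on the other metastasis arrays. Without it the difference from primary tumours was -0.69 and passed the threshold (limma adjusted p = 0.0423). On the Pdgfrb probe set 1417148_at, metastasis array 2 had 5.27, above 4.64 to 4.74 on the others. Both groups of values lie near or below the array median.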

How the results depend on the processing

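Over the 16 member probe sets and the alternatives, 238 of 292 values kept their direction and their side of the threshold. The count of called members, 6, was 2 without metastasis arrays 1 and 3 together and ran from 1 to 6 with an array or a mouse left out; it was 3 without primary array 3, 2 without mouse 3 and 1, Thy1, without mouse 4. Over all probe sets 7214 calls became 3975 with 1 probe set per gene, where fewer features are tested, and 2319 to 8439 with an array or a mouse left out: 4599, 4040 and 3803 without primary arrays 2, 3 and 4, and 2319 and 3336 without mice 3 and 4. The 30 called related genes became 16 (without mouse 3) to 31 with an array or a mouse left out, 20 without metastasis arrays 1 and 3, and 25 to 33 under the other settings run on them. With the mouse as a block (replicate block) 5 members and 5757 probe sets were called; among members the block ended only the call of Pdgfra 1421917_at, and among the 21 genes named by rule from related lists those of Fbln5 and Twist1; Loxl3, added to them, lost its call too. Of the named related genes Pi16, Thbs1, Itgb3, Fbln5, Twist1, Loxl3 and Sdc4 lost their calls in 8 to 14 of 19 settings.

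Directions that turned belonged to differences that were never called. Postn lay at 0.11 after scaling to the 75th percentile and 0.16 after quantile normalization, and Loxl1 1436063_at at -0.10 after quantile normalization. Without metastasis arrays 1 and 3 Fap lay at -0.23 and Loxl1 1451978_at at -0.18. With an array or a mouse left out, Fap ranged from -0.093 to 0.44, Postn from -0.40 to 0.029, Sparc 1458204_at from -0.10 to 0.28, Loxl1 1436063_at from -0.14 to 0.26 and Loxl1 1451978_at from -0.095 to 0.49. Without metastasis arrays 1 and 3, Fn1 1426642_at (limma adjusted p = 0.0666), Dpt (0.141) and both called Pdgfra probe sets (0.113 and 0.109) lost their calls, with 2 metastasis arrays left. Without mice 1, 3 and 4 Pdgfra 1421917_at was not called (0.0833, 0.136 and 0.108), nor was Dpt without mice 3 and 4 (0.161 and 0.126). Pdgfra 1438946_at was not called whichever of mice 1 to 4 was left out (0.170, 0.0823, 0.115 and 0.0658). Apart from fewer arrays, the causes were not tested. Dim probe sets limit, among others, the Loxl1, Ltbp1, Dpt, Pdgfrb 1417148_at, Pdgfra 1421916_at and Fn1 1437218_at values. Some metastasis arrays were also dim for Pdgfra 1438946_at, Ltbp4 and Twist1.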
